A study of Drosophila melanogaster with 2 samples.

Results

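Of the 5921 summits in the authors' final list of ATbp peaks from Drosophila melanogaster embryos, 586 lay in DNA poor in A+T, which is 9.9% of the list (95% Wilson interval 9.16 to 10.7%). A summit is the base at which the authors placed the top of a peak, and it was called A+T-poor when at most 52% of the bases in a window made of the summit and 50 bp on either side were A or T. The other 5335 summits of the list are the set these 586 are compared with, together with 6346 A+T-poor summits that did not enter it, taken from the relaxed list of 30000 peaks called on both replicates pooled. Positions are on the dm6 build. The embryos came from a transgenic line that stably makes ATbp with a green fluorescent protein (GFP) tag at its C-terminal end. They were whole embryos of mixed sex, 0 to 14 h old, and chromatin sonicated to fragments of 200 to 800 bp was immunoprecipitated with an antibody against GFP. There were 2 biological replicates and 1 group, so no test over samples exists, and a control library was not analysed here. Sequencing depth is unknown, because the deposited files hold peaks without the reads behind them. The intervals printed with shares and medians are 95% intervals and cover counting error only, since summits are not replicates of a condition.

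ATbp carries zinc fingers and owes its name to binding DNA rich in A+T. In chromatin immunoprecipitation followed by sequencing (ChIP-seq), fragments bound by the tagged protein, directly or through other proteins, are enriched and mapped, and a peak is a place where they pile up. Promoters, the stretches around transcription start sites (TSSs), are places where many proteins gather in open chromatin, and those of highly expressed genes such as the ribosomal protein genes are known for short core elements. The final list is named for the irreproducible discovery rate (IDR), a measure built on how alike peaks rank in replicates, and is called the IDR list below. Its peaks were the 5921 strongest of the pooled relaxed list. Some of them had no summit within 100 bp in the relaxed list of 1 of the replicates.

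Some of the strongest A+T-poor summits are shown first, because their letters show how far from A+T-rich DNA a strong peak could lie. Only windows with no base in an annotated untranslated region (UTR) were taken. Each line gives the window on the plus strand of dm6, read 5′ to 3′ from the NCBI RefSeq genome, and capitals mark every unbroken stretch of 5 or more A or T bases. The windows are the promoter of fkh (chr3R:28585455-28585555), the promoter of moody (chrX:2050230-2050330), an intron of rdx (chr3R:14024957-14025057), intergenic DNA nearest lncRNA:CR44526 (chr3L:8696533-8696633), the promoter of RpL23A (chr3L:1668677-1668777) and the summit of lowest A+T, near snRNA:7SKa (chr3R:7474707-7474807). For contrast the last line is a strong intron summit above the threshold, in cno (chr3R:5215478-5215578), with 57.4% A+T and rank 3 in the IDR list.
fkh: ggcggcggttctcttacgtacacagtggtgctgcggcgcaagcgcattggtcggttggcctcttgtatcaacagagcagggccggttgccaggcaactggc
moody: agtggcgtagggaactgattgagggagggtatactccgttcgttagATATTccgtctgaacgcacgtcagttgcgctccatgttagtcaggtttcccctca
rdx: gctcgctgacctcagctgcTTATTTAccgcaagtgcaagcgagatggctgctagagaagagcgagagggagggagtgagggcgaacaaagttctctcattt
lncRNA:CR44526: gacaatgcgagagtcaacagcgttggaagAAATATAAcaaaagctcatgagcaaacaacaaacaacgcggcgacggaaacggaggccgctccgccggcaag
RpL23A: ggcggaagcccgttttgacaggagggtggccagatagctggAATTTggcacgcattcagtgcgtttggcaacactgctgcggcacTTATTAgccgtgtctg
snRNA:7SKa: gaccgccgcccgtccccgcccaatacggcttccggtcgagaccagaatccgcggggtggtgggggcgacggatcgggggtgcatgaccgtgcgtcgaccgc
cno: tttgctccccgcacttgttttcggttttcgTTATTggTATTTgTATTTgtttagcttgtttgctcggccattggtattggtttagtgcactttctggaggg
The window at fkh holds no such stretch, and its longest stretch of A or T is 3 bases. The window at snRNA:7SKa reaches 26.7% A+T and its longest stretch is 4 bases.

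A further set shows the 6-letter word GTAAAC, in capitals here as GTAAAC or as its reverse complement GTTTAC. This word was more frequent in the A+T-poor summits than in A+T-poor DNA of the relaxed list (values are given further on), and it is the core of the sequences bound by fork head type proteins. The 3 windows are among the strongest A+T-poor summits with the word and hold no UTR base. They lie at the promoter of Sodh2 (chr3R:10875942-10876042), in an intron of Mkp3 (chr3L:19073327-19073427) and in an intron of lab (chr3R:6665457-6665557), all on the plus strand of dm6. Sodh2 encodes a sorbitol dehydrogenase, Mkp3 a MAP kinase phosphatase and lab a Hox protein.
Sodh2: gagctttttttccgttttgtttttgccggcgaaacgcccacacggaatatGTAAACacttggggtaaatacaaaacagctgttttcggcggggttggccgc
Mkp3: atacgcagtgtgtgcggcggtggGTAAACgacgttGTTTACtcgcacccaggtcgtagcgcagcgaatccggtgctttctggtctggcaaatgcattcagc
lab: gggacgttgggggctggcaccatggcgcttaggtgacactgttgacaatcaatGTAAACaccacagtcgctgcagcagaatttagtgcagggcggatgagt

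A+T-poor windows were less frequent among the IDR summits than elsewhere. The share was 9.9% in the IDR list, against 26.4% of the 24079 relaxed pooled summits outside it, a ratio of 0.376. Among the weakest 10000 relaxed pooled summits it was 30.1%, which is also the share among windows at every 10th position of the genome. The 586 windows averaged 46.9% A+T (SD 4.41), the other IDR windows 66.6% (SD 7.36), and the A+T-poor relaxed windows outside the IDR list 46.5% (SD 4.37). Among X and the large arms of the autosomes the share was highest on 2R, 12.9% of its IDR summits (11.0 to 15.1%), against 10.03% on 3R, 9.89% on 3L, 8.39% on X (6.89 to 10.2%) and 8.33% on 2L (6.84 to 10.1%), and chromosome 4 held 2 of 14 (14.3%, 4.01 to 39.9%). Of the genome windows, 31.3% were A+T-poor on 2R, 31.4% on 3R, 28.3% on 3L, 32.2% on X, 28.5% on 2L and 8.34% on chromosome 4.

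Values on both sides of the threshold were as follows. At 51.5% A+T, the last value inside, 93 summits had a promoter share of 38.7%, a median signal of 195.9 and a peak in both replicates in 88.2% of cases. At 52.5%, the first value outside, 98 summits had 37.8%, 197.2 and 87.8%. Support among the strongest peaks of replicate 2, defined further on, was 72.0% inside and 79.6% outside. For the next values on either side the order was reversed. Support at 53.5% A+T was 74.1%, below that at 50.5% A+T, so no step at the threshold can be read from these values.

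**Figure D1:**
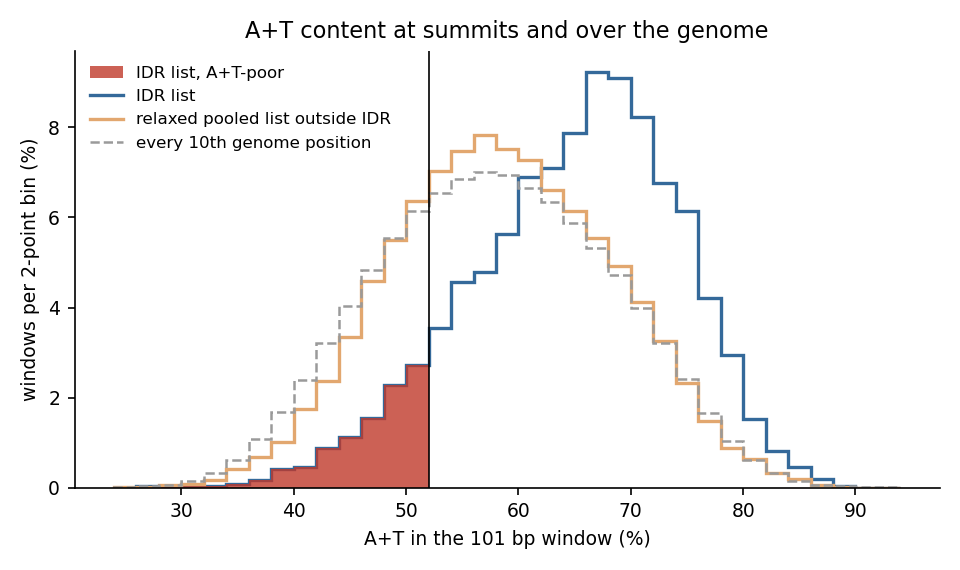
Distribution of A+T content (x axis, % of the window around the summit) in bins of 2 percentage points (y axis, % of windows) for A+T-poor IDR summits (filled), all IDR summits, relaxed pooled summits outside the IDR list and every 10th genome position. The black line marks 52%. The relaxed summits lie close to the genome, while the IDR list is shifted to the right and keeps 9.9% of its summits left of the line.

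The A+T-poor summits sat in local dips of A+T. In bins of 21 bp, the mean A+T of the members was 46.8% at the summit, against 68.0% for the other IDR summits and 45.7% for A+T-poor relaxed summits, values that follow from how the sets were chosen. At 200 bp to the left it was 57.3% for the members, 57.2% for the other IDR summits and 56.6% for A+T-poor relaxed summits. At 500 bp to the left it was 59.8%, 57.4% and 58.9% in the same order, and at 500 bp to the right 58.2%, 57.6% and 59.4%. The highest A+T of any window of the same length centred within 200 bp of the summit had a median of 69.3% for the members, 76.2% for the other IDR summits and 66.3% for A+T-poor relaxed summits. That window lay a median of 159.5 bp from the members' summits and 58 bp from the other summits. A window above 64% A+T within 200 bp was found for 418 of the 586 members (71.3%, 67.5 to 74.8%), 96.3% of the other IDR summits and 63.3% of A+T-poor relaxed summits. Some of the strongest members had no such window. The highest value within 200 bp was 53.5% at fkh, 50.5% at moody and 57.4% at stan. At yps it was 82.2% and at the promoter of Uhg4, a host gene of small nucleolar RNAs (snoRNAs), 84.2%.

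Promoters took a larger part of the A+T-poor summits than of any set compared with them. A summit was assigned to a promoter when a TSS lay within 500 bp, and otherwise to 5′ UTR, coding sequence or intron, in that order of preference, then to 3′ UTR, any other exon or intergenic DNA. By this rule 277 of the 586 members were promoter summits (47.3%, 43.3 to 51.3%), against 1774 of the other 5335 (33.3%) and 24.9% of the A+T-poor relaxed summits outside the IDR list. Over the whole IDR list the share was 34.6%. The difference between members and other IDR summits was 14.0 percentage points (Newcombe 95% interval 9.81 to 18.3). The difference appeared in each library alone. Among the 5921 strongest relaxed peaks of replicate 1, 49.3% of 765 A+T-poor summits and 34.6% of the others were at promoters. In replicate 2 the shares were 45.1% of 521 A+T-poor summits and 32.9% of the others.

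Introns held 214 members (36.5%), against 48.3% of the other IDR summits, and intergenic DNA held 68 (11.6%), against 16.0%. Coding sequence held 12 members (2.05%, 1.18 to 3.54%) and 8 of the other summits (0.150%). These counts have to be read against where A+T-poor DNA lies. Of all A+T-poor genome positions, 34.1% were in coding sequence farther than 500 bp from a TSS, 26.5% in introns and 21.7% in intergenic DNA. Of 20 IDR summits in coding sequence 12 were A+T-poor, and so were 74.7% of coding positions. Of the IDR promoter summits 13.5% were A+T-poor, against 33.3% of promoter positions. The corresponding values were 7.66% of summits and 19.7% of positions in introns, 7.38% of summits and 24.1% of positions in intergenic DNA, and 22.5% of 40 summits and 40.6% of positions in 5′ UTRs. The summits were less often A+T-poor than the DNA of their class in each class but the 3′ UTR, where 9.62% of 52 summits and 9.05% of positions were.

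**Figure D2:**
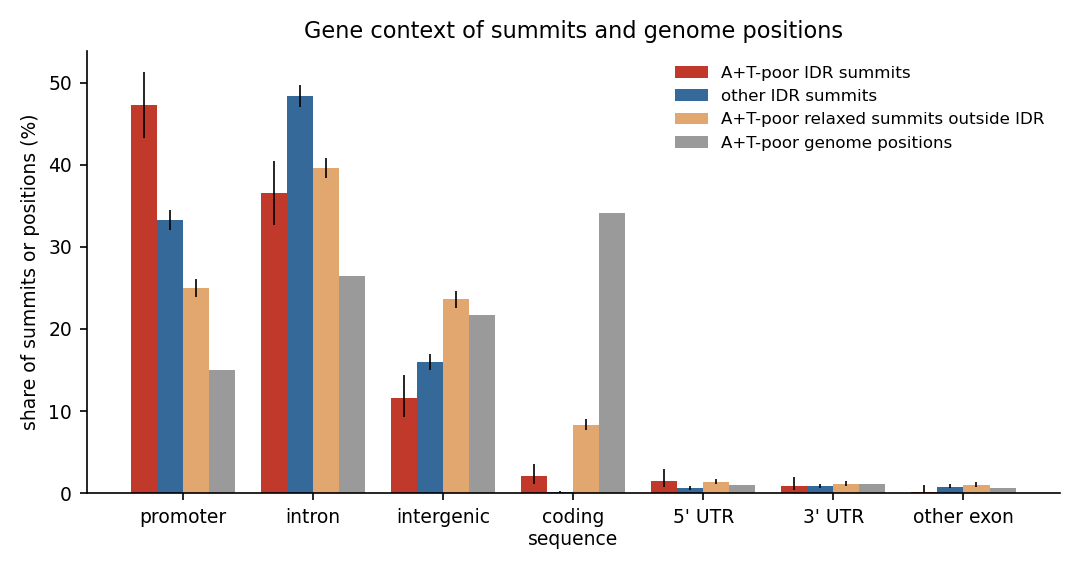
Share (y axis, %) of A+T-poor IDR summits, other IDR summits, A+T-poor relaxed summits outside the IDR list and A+T-poor genome positions in each gene context (x axis). Error bars are 95% Wilson intervals of the summit shares, and genome positions carry none. The A+T-poor IDR summits stand highest at promoters (47.3%) and hold 2.05% in coding sequence, where 34.1% of A+T-poor genome positions lie.

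Within promoters, the A+T-poor summits lay closer to the start of transcription than the other IDR summits. Where A+T-poor DNA in general lies around TSSs was not examined. Their median distance to the nearest TSS was 76 bp (61 to 90 bp), against 166 bp (160 to 177 bp) for the other IDR promoter summits, and 162 of 277 (58.5%) lay within 100 bp, against 28.6%. They were also more often downstream of the TSS. Of the members, 62.5% were upstream of the nearest TSS, against 75.4% of the other promoter summits, and 24.2% fell on the TSS or in the 100 bp after it, against 10.4%. The most filled 50 bp bin for the members was the one just upstream of the TSS, with 65 of 277 summits (23.5%), where 6.31% of the other promoter summits lay. For the other summits the most filled bin was 100 to 150 bp upstream, with 13.8%, and 11.6% of the members. TSSs on both strands within 500 bp were found at 20.2% of the members (15.9 to 25.3%) and 25.9% of the other promoter summits. A TSS of a protein-coding gene was present at 94.2% and 90.5%.

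**Figure D3:**
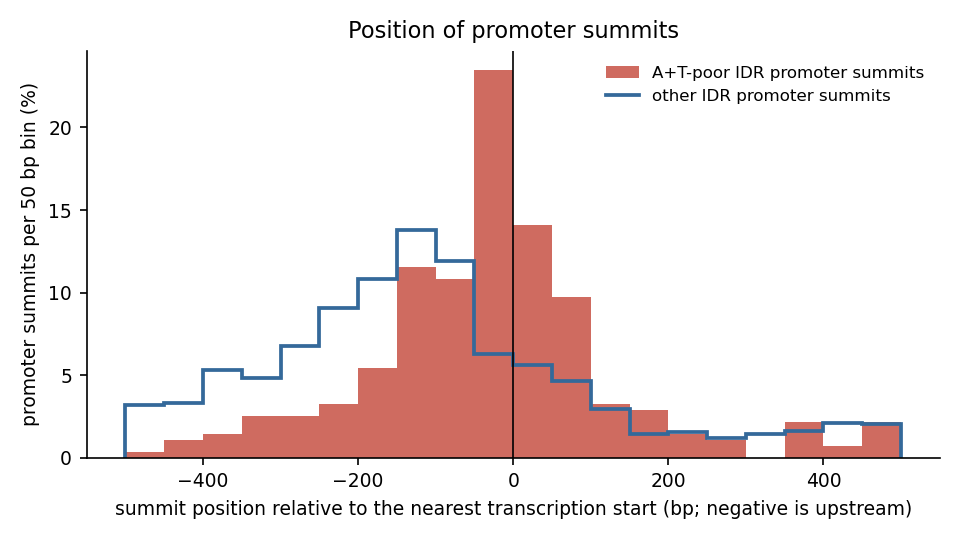
Position of promoter summits relative to the nearest TSS (x axis, bp, negative values upstream) in 50 bp bins, as the share of promoter summits (y axis, %) for 277 A+T-poor IDR summits (filled) and 1774 other IDR summits (line). The members peak just upstream of the TSS (23.5% in that bin), the others 100 to 150 bp upstream (13.8%).

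The 20 strongest members ranged over signals of 717.4 to 1556.8, where signal is the authors' own peak value and is compared here only within a list, so ranks are given beside the replicates' values. The strongest lay 66 bp downstream of a TSS of stan, which encodes the atypical cadherin of planar cell polarity (2R, summit 10673411, 47.5% A+T, rank 59 of 5921). Its signal was 1098.8 in replicate 1 and 467.5 in replicate 2, which placed it at ranks 17 and 228 of the replicates' own lists. The next, 241 bp upstream of fkh, the gene of the fork head transcription factor, had 37.6% A+T and a signal of 1543.3 in the IDR list. In the replicates it had 927.2 and 622.3, at ranks 37 and 112. Both of these ranked higher in replicate 1. Other strong members ranked higher in replicate 2. A summit in an intron of wde, which encodes a partner of a histone H3 methyltransferase, had 591.3 in replicate 1 and 682.4 in replicate 2, at ranks 154 and 84. The summit in coding sequence of otp, a homeobox gene, had 488.5 and 662.7, at ranks 225 and 92. The summit in coding sequence of Pde1c, which encodes a cyclic nucleotide phosphodiesterase, had 30.7% A+T, and its 607.4 and 610.7 gave ranks 143 and 121.

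Further genes among these 20 had varied roles. They included rdx, an adaptor for protein degradation in Hedgehog signalling, moody, a receptor of the glial blood-brain barrier, yps, a Y-box RNA-binding protein, ITP, the ion transport peptide, tai, a coactivator of the ecdysone receptor, and CAP, an adaptor protein. The summit at rdx ranked 125 in replicate 1 and 395 in replicate 2. The one at moody ranked 320 and 167, and the one at yps 291 and 209. The promoters of CG9743 (signal 782.4 in the IDR list), eEF1gamma and Uhg4 and intergenic summits near CG3092 (1054.1) and lncRNA:CR44526 (721.7) were also among them, as were 3 ribosomal protein promoters, described next. The members of lowest A+T ranged from weak to strong, set against member quartiles of 150.7 and 285.4. Signals were 281.9 at snRNA:7SKa (26.7% A+T) and 293.3 near lncRNA:CR44588 (27.7%), both near the upper quartile. The summit near lncRNA:CR44588 ranked 1489 in replicate 1 and had no replicate 2 peak within 100 bp. Signals were 155.5 in an intron of E23, an ABC transporter gene (27.7%), and 131.7 near lncRNA:CR44517 (28.7%). Next in order, at 30.7%, came the Pde1c summit with 1228.6 and a summit at CG13204 with 129.6.

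Ribosomal protein genes were frequent among the A+T-poor promoter summits, a group singled out after its values were seen. Of 88 cytosolic ribosomal protein genes, 62 had an IDR promoter summit, and for 28 of these 62 (45.2%, 33.4 to 57.5%) a promoter summit was A+T-poor. Over all 2372 genes with an IDR promoter summit the value was 346 genes, 14.6%. The 28 summits at these genes had a median signal of 515.4 (399.7 to 623.4), against 179.3 (168.1 to 189.1) for the other 249 A+T-poor promoter summits. The 36 ribosomal protein promoter summits above 52% A+T had a median of 309.2 (266.7 to 349.8). All 28 lay within 100 bp of a TSS, at a median distance of 24 bp, and 33 of the 36 did, at a median of 18.5 bp. Without ribosomal protein genes, 134 of 249 A+T-poor and 474 of 1738 other promoter summits lay within 100 bp of a TSS. The strongest of the 28 were at RpL7 (signal 1214.7, 40.6% A+T, 32 bp from its TSS), RpS27 (1068.2, 51.5%, 8 bp), RpS4 (769.5, 45.5%, 11 bp), RpL13A (709.2, 43.6%, 33 bp), RpL23A (696.1, 43.6%, 73 bp) and RpS10b (667.1, 48.5%, 4 bp). The weakest was at RpS29 (140.7).

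Most of these 28 summits ranked higher in replicate 2, unlike the other A+T-poor promoter summits. Of 26 with a peak in both replicates, 7 ranked higher in replicate 1 and 19 in replicate 2. Among the other A+T-poor promoter summits, 129 of 208 (62.0%, 55.3 to 68.3%) ranked higher in replicate 1, against 571 of 1559 other promoter summits of the IDR list (36.6%). Of 34 ribosomal protein summits above 52% A+T with both peaks, 11 ranked higher in replicate 1 and 23 in replicate 2. The summit at RpL7 ranked 161 in replicate 1 and 94 in replicate 2, that at RpS27 214 and 145, and that at RpL23A 663 and 309. Some went the other way, such as RpL13A at ranks 377 and 491 and RpS19a at 746 and 1242. Of the 28, 27 had a peak among the 5921 strongest of replicate 2 (96.4%), against 153 of the other 249 A+T-poor promoter summits (61.4%). The exception was RpS14b, which ranked 9674 in replicate 1 and had no peak within 100 bp in replicate 2. The summit at RpL28, shared with the translation factor gene eIF1 and a snoRNA gene, ranked 705 in replicate 2 and had no replicate 1 peak within 100 bp.

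**Figure D4:**
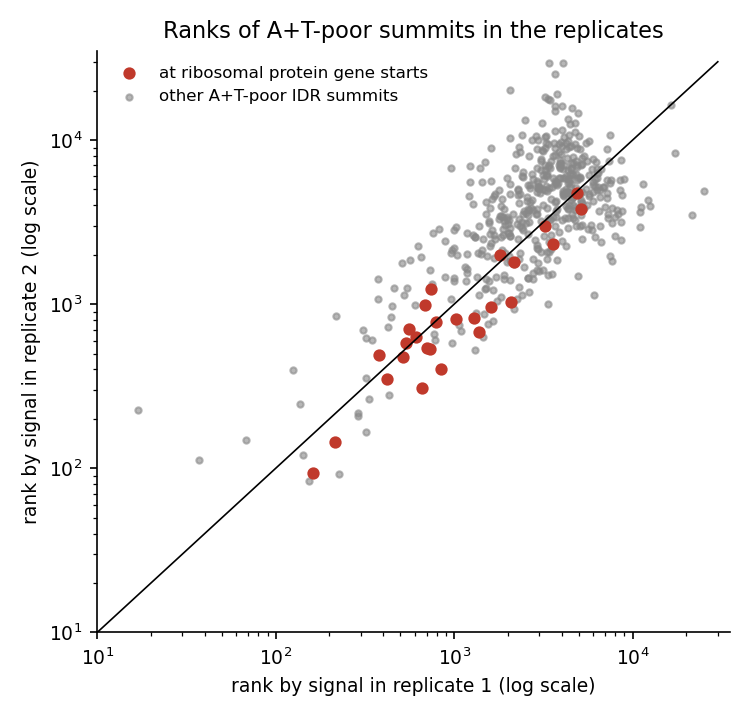
Rank by signal in replicate 1 (x axis, log scale) and in replicate 2 (y axis, log scale) of the 508 A+T-poor IDR summits with a peak within 100 bp in both replicates, where rank 1 is the strongest. Red points are the 26 summits at ribosomal protein gene starts, of which 19 lie below the diagonal (ranked higher in replicate 2), and grey points are the other members, most of which lie above it.

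Other gene lists held few A+T-poor promoter summits by count, and their shares are read against the 14.6% of all genes with an IDR promoter summit. Translation factors had 6 of 14 (42.9%, 21.4 to 67.4%), of which the eIF1 summit is also that of RpL28. Their summits at eEF1gamma (signal 933.2), eIF1 (549.7) and eEF1alpha1 (306.1) were the strongest, and eEF1alpha1 encodes the main elongation factor. Dorsoventral patterning genes had 4 of 8 (50%, 21.5 to 78.5%). They were ush, a GATA factor partner (194.8), dl, the dorsal transcription factor (164.7), cact, its inhibitor (134.6), and rho, a protease of growth factor signalling (132.3). Polycomb and trithorax group genes had 3 of 7 (42.9%, 15.8 to 74.95%), at ph-d (213.5), kis (187.0) and Psc (131.5). Of these, ph-d and Psc encode Polycomb complex proteins and kis a chromatin remodeller. Small nucleolar RNA genes had 4 of 11 (36.4%, 15.2 to 64.6%), at 3 summits that also served Uhg4, RpL28 or RpS29. The tRNA genes had 4 of 27, at 2 summits, the stronger at tRNA:Leu-CAG-1-1 (272.1). Mitochondrial ribosomal proteins had 2 of 12, at mRpL18 (148.3) and mRpL53 (140.8), homeobox genes 1 of 7, at C15 (144.0), and oxidative phosphorylation genes 1 of 5, at ATPsyngamma (132.4). The intervals of the first 4 lists lie above the value of all genes, on 14 genes or fewer each. Those of the last 4 lists span it. All these lists were picked with earlier results of these data known, and the summits at cact and ATPsyngamma ranked 13506 and 14674 in replicate 2, while ush, Psc, mRpL18 and mRpL53 had no peak there within 100 bp.

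No A+T-poor promoter summit was found for the other lists. They were Notch and Enhancer of split genes (0 of 9), heat shock genes (0 of 10), muscle genes (0 of 9), genes of architectural proteins (0 of 6), cell cycle genes (0 of 5), histone, neural, proteasome and segment polarity genes (0 of 2 each) and maternal and gap genes (0 of 1). For 10 genes the upper Wilson bound of a share of 0 is 27.8%, and each of the intervals of these lists holds the 14.6% of all genes.

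The intron members were spread over 206 genes, of 1319 genes with an IDR intron summit. Most genes had 1, 25 genes had 2, and 3 genes had more. A summit lying in overlapping genes was counted in each, so the counts add up to more than the 214 intron members. Of all IDR intron summits 7.66% were A+T-poor. The A+T-poor summits were 4 of 11 IDR intron summits in Hr4, a nuclear receptor gene, 4 of 18 in shn, a zinc finger gene of Dpp signalling, and 3 of 12 in Eip75B, an ecdysone-induced nuclear receptor gene. The signals in Hr4 were 134.2 to 260.3, in shn 144.8 to 276.2 and in Eip75B 208.7 to 440.0. Other strong intron members beside those in wde and rdx were in ITP (790.9) and tai (734.6). Intergenic members were led by those near CG3092, lncRNA:CR44526, Cyp6v1 (599.4), a cytochrome P450 gene, croc (387.9), which encodes a fork head type protein, and CG43245 (380.9). After Pde1c and otp, the coding sequence members were weaker, at Tim17b1 and mtd (241.1), klar (197.1) and jing (174.9). In 5′ UTRs the strongest were 2 at CAP (717.4 and 610.2), Pdp1 (548.4), which encodes a bZIP transcription factor, Mef2 (319.1), the muscle regulator, and lbk (235.2). The 3′ UTR members were at pros (327.4), a neural fate regulator, fne (173.5), Cam (150.3), which encodes calmodulin, Lim3 (133.8) and CG1888 (133.0). The only member in another exon was at asRNA:CR45520 (248.6). Neighbouring summits were common, and 148 members (25.3%) had another IDR summit within 1000 bp, against 22.7% of the other summits. Of all members, 4 shared the whole peak interval with another summit. The neighbour was above 52% A+T in 137 of these 148 (92.6%, 87.2 to 95.8%), near the share in the whole list, 5335 of 5921 summits. It had the higher signal in 96 (64.9%, 56.9 to 72.1%), against 47.9% for the other summits with a neighbour.

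A+T-poor summits were weaker than the rest of the IDR list. Their median signal was 188.1 (179.6 to 199.7), against 224.3 (219.8 to 228.5) for the other summits, a ratio of 0.839. They ranged over 128.9 to 1556.8, and the others reached 4854.3. Among the 3 classes with the most members the gap was widest at promoters, with 187.0 for members and 253.6 for other promoter summits (ratio 0.737). In introns the medians were 191.4 for members and 216.3 for other summits (0.885), and in intergenic DNA 191.7 and 211.5 (0.906), where the intervals 171.4 to 241.4 and 203.0 to 218.4 overlap. In the small classes the ratio was 0.651 in coding sequence, 0.695 in 3′ UTRs and 1.16 in 5′ UTRs. Members made up 4.8% of the 500 strongest IDR summits and 13.1% of the 1921 weakest. The largest −log10 q-value of the list was reached by 49.5% of the members and 63.1% of the other summits.

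Support differed between the replicates. Peaks were matched by the distance between summits, and overlap of peak intervals was not examined. A relaxed peak within 100 bp of the summit was present in both replicates for 508 of the 586 members (86.7%, 83.7 to 89.2%), against 93.2% of the other summits, and 92.6% of the whole list. For 63 members (10.8%) the peak was in replicate 1 alone, against 3.84% of the other summits, and for 13 (2.22%) in replicate 2 alone, against 2.83%. For 2 members neither replicate had one. The IDR list was made from the same replicates, so these counts describe its make-up and are no independent test.

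A stricter support, a peak among the 5921 strongest of a replicate, separated the libraries further. In replicate 1 it was met by 506 members (86.3%, 83.3 to 88.9%), against 83.4% of the other summits and 83.7% of the whole list. In replicate 2 it was met by 390 members (66.6%, 62.6 to 70.3%), against 85.6% of the other summits and 83.8% of the whole list. The difference in replicate 2 was −19.1 percentage points (−23.1 to −15.3), and in replicate 1 it was 2.99 (−0.178 to 5.74). In introns the replicate 1 difference was 6.74 points (1.75 to 10.5), with support for 89.7% of members and 83.0% of the other summits. At promoters the replicate 1 shares were 86.3% and 84.8%, and in intergenic DNA 82.4% and 81.0%. The replicate 2 difference was negative in all 3 of these classes. The replicate 2 shares of members were 65.0% at promoters, 65.4% in introns and 72.1% in intergenic DNA, against 84.3%, 85.8% and 88.9% of the other summits there. Both replicates gave such support for 332 members (56.7%), against 70.8%, and replicate 1 without replicate 2 for 174 (29.7%), against 12.5%.

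In replicate 2 the support changed with A+T content in a graded way. It was 58.1% for summits up to 46% A+T, 70.9% between 46 and 52%, then 75.1%, 79.3%, 87.2% and finally 92.6% above 70%. The median signal in the IDR list rose over the same classes, with 182.5, 189.3, 204.1, 219.7, 222.0 and 240.2. Support at equal signal was not tested. In replicate 1 the corresponding values were 87.9%, 85.6%, 86.0%, 86.1%, 82.5% and 81.2%. The replicates' own lists differed among their strongest peaks, where A+T-poor summits made up 12.9% of the 5921 strongest of replicate 1 and 8.80% of those of replicate 2. Over all 30000 relaxed peaks the shares were 23.9% and 23.6%, and outside the strongest 26.6% and 27.3%. What part the difference among the strongest peaks has in the support of single members was not tested.

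**Figure D5:**
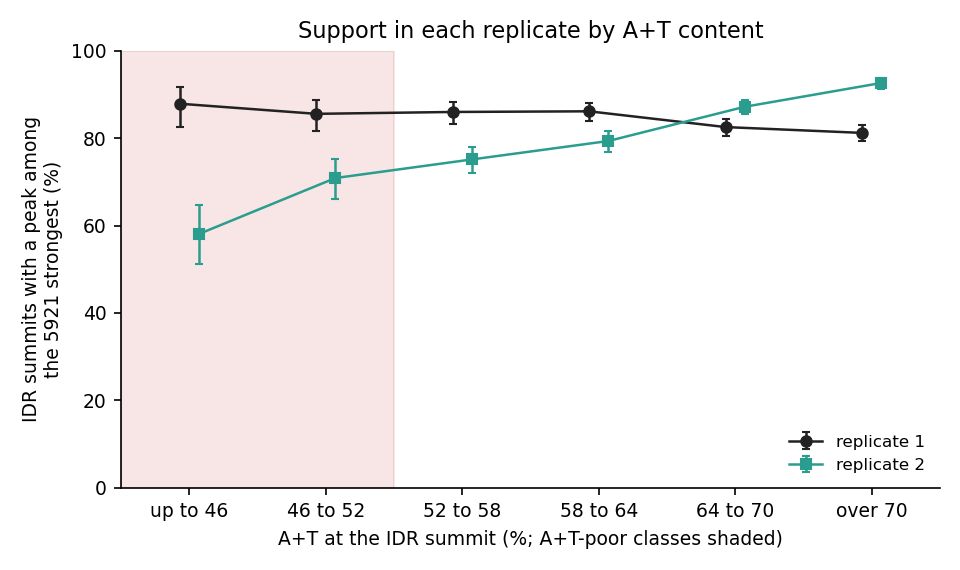
Share of IDR summits with a peak within 100 bp among the 5921 strongest peaks of replicate 1 or replicate 2 (y axis, %) by A+T content at the summit (x axis, 6 classes, A+T-poor classes shaded). Error bars are 95% Wilson intervals. Replicate 2 climbs with A+T, 58.1% in the lowest class and 92.6% in the highest, while replicate 1 stays between 81.2% and 87.9%.

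Signals could be compared where both replicates had a peak. In replicate 1 the members had a median of 116.8, against 124.4 for the other summits (ratio 0.939), and in replicate 2 85.8, against 110.5 (0.777). Of the 508 members with both, 322 (63.4%, 59.1 to 67.5%) ranked higher in replicate 1, against 41.5% of the other summits. The replicates placed their own summits near the pooled ones, a median of 6 bp away in replicate 1 and 11 bp in replicate 2. The window around those own summits was at most 52% A+T for 475 of 571 members with a replicate 1 peak (83.2%), for 408 of 521 with a replicate 2 peak (78.3%), and in both for 343 of 508 (67.5%). Of the 765 A+T-poor summits among the strongest of replicate 1, 349 (45.6%) had one of the strongest of replicate 2 within 100 bp, against 72.8% of the other summits. In the reverse direction it was 67.0% of 521, against 69.5%.

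The 6-letter word GTAAAC was more frequent in members than in A+T-poor DNA of the relaxed list. Over all members, the interval of its difference from the rest of the IDR list held 0. Both strands of the window were searched, and the word was present in 66 members (11.3%, 8.95 to 14.1%), 9.62% of the other IDR summits and 3.77% of the A+T-poor relaxed summits outside the list. Over all 30000 relaxed pooled summits it was 6.62%. The difference from the A+T-poor relaxed summits was 7.50 percentage points (5.13 to 10.3), and from the other IDR summits 1.65 (−0.806 to 4.56). The ratio of members to A+T-poor relaxed summits was 2.99. TAAACA, which overlaps it, was in 13.5% of members and 4.92% of A+T-poor relaxed summits. GTAAAC was known from earlier results of these data, and TAAACA was picked after its values were seen. The word was present at 16.8% of intron members (12.4 to 22.4%), 8.30% of promoter members and 5.88% of intergenic ones, against 4.10%, 3.47% and 4.01% of the A+T-poor relaxed summits in the same places. The intergenic difference was 1.88 points (−1.86 to 10.2). Of the other IDR summits, 10.97% in introns and 8.79% at promoters had the word. At ribosomal protein promoters 0 of 28 members had it (upper Wilson bound 12.1%), and so did 0 of 36 other IDR summits there. Of the other A+T-poor promoter summits, 23 of 249 (9.24%) had it, a share below that bound. Each replicate alone gave a difference between its strongest 5921 and weaker A+T-poor summits, 8.10% and 3.91% in replicate 1 and 9.60% and 3.06% in replicate 2.

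The matches lay near the summit. GTAAAC occurred 7.34 times per 100 members within 25 bp of the summit and 2.56 times at 175 to 200 bp, counted on both strands and both sides. Among the other IDR summits the values were 6.39 and 2.47, and among A+T-poor relaxed summits 2.11 and 2.10. CAAACA, which shares AAACA with longer fork head type sequences, was present in 23.7% of members (20.5 to 27.3%), 17.7% of other IDR summits, 12.3% of A+T-poor relaxed summits and 15.2% of all relaxed pooled summits. It occurred 22.0 times per 100 members within 25 bp, 10.8 at 25 to 50 bp, 14.2 at 50 to 75 bp and 6.997 times at 175 to 200 bp. Within 25 bp and at 175 to 200 bp, it occurred 13.9 and 7.31 times per 100 other IDR summits. Per 100 A+T-poor relaxed summits the values were 8.08 and 6.65.

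ACAGTG was spread differently around the members than around the other summits. It was present in the window of 9.39% of members (7.28 to 12.02%), 6.77% of other IDR summits, 5.48% of A+T-poor relaxed summits and 5.68% of all relaxed pooled summits. Around the members it was most frequent at the centre, 6.14 matches per 100 summits within 25 bp (36 matches) and 3.75 at 75 to 100 bp (22 matches). Around the other IDR summits it was 3.07 within 25 bp and 7.63 at 75 to 100 bp. Around the A+T-poor relaxed summits it was 2.79 within 25 bp, 3.20 at 25 to 50 bp and 2.19 at 75 to 100 bp. The windows of fkh and lab printed above hold it on 1 strand or the other. A match is a run of letters and was not tested as a site.

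Core promoter words were more frequent at the ribosomal protein genes than at the other A+T-poor promoters. The TCT initiator, CTTT with a pair of pyrimidines on either side, is known from promoters of translation machinery genes. It was in 18 of 28 A+T-poor ribosomal protein summits (64.3%, 45.8 to 79.3%) and in 22 of the other 249 A+T-poor promoter summits (8.84%). The DRE core ATCGAT was in 7 of the 28 and in 9 of the 249 (3.61%). The 36 ribosomal protein summits above 52% A+T had the TCT initiator in 26 and ATCGAT in 12 cases. All relaxed pooled summits had the TCT initiator in 11.4% and ATCGAT in 2.99% of windows.

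GAGAGA, a word bound by GAGA factor, was absent from the 28 ribosomal protein members, with an upper Wilson bound of 12.1%. It was present in 25 of the other 249 A+T-poor promoter summits (10.04%), a share below that bound. It was also absent from the 36 ribosomal protein promoter summits that were not A+T-poor. Over all members it was in 54 (9.22%, 7.13 to 11.8%), against 4.52% of other IDR summits, 6.35% of A+T-poor relaxed summits and 4.92% of all relaxed pooled summits. At promoters alone the members had it in 9.03% and the A+T-poor relaxed summits in 9.85% of cases. The CTCF core AGGNGGC was in 9.56% of members, 1.37% of other IDR summits, 8.21% of A+T-poor relaxed summits and 3.52% of all relaxed pooled summits. Ohler motif 1, a core promoter element searched by its consensus, was in 7 members (1.19%, 0.580 to 2.44%), all of them at promoters. It was in 0.187% of other IDR summits, 0.221% of A+T-poor relaxed summits and 0.187% of all relaxed pooled summits. At promoters alone the shares were 2.53% of members, 0.338% of other IDR summits and 0.884% of A+T-poor relaxed summits. Ribosomal protein members had it in 3 of 28 cases, and the other A+T-poor promoter summits in 4 of 249.

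The short A/T runs shown in the windows above were fewer in members, as their choice requires. An unbroken stretch of 5 or more A or T bases was in 77.8% of members, 99.2% of other IDR summits and 74.6% of A+T-poor relaxed summits, and one of 8 or more in 17.4%, 76.8% and 17.6%. The difference between members and A+T-poor relaxed summits was 3.26 percentage points (−0.429 to 6.62) for stretches of 5 and −0.211 (−3.22 to 3.19) for stretches of 8. Low-complexity and repeat DNA, as masked in the reference, covered a mean of 9.67% of the members' windows, 23.2% of those of other IDR summits and 9.66% of those of A+T-poor relaxed summits.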

How the data were processed

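ATbp-GFP ChIP-seq peak lists on dm6 were used as deposited: the IDR list, and relaxed lists of replicate 1, replicate 2 and their pooled alignments. The deposited signal value of each peak is the authors' own, with scaling not stated, and was used within 1 list at a time. The deposited significance column was taken for a q-value on the −log10 scale, after the layout of such files, and the p-value column was left unfilled by the authors. The deposited offset column places the summit. No source used here gives the aligner, peak caller or IDR cut-off. Lists on dm3 were not used.

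The A+T content was counted in the NCBI RefSeq genome, over the summit and 50 bp on each side, and members had at most 52%. All 5921 IDR peaks are the strongest 5921 of the pooled list. Gene context came from Ensembl release 115 (BDGP 6.54; 18164 genes, 23584 TSSs, transposable elements left out), whose 17682 genes with a name also in RefSeq overlapped there at the same place. Ranks run by signal within a list. Shares have Wilson intervals, differences Newcombe intervals and medians order-statistic intervals, all at 95%. No p-value was computed. Python 3.11.15, NumPy 2.4.6, SciPy 1.17.1, pandas 2.3.3 and matplotlib 3.10.9 were used, and the functions were tested on simulated data.

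Named genes are those at the 20 strongest members, the 5 strongest of each gene context, the 3 strongest of each gene list, and the 5 members of lowest A+T. The member at 1 of these places is not reported here. Further ribosomal protein genes, genes with several intron summits, rho, CG13204, the cno window, RpS14b, RpL28 and the windows of RpL23A and with GTAAAC were chosen after their values were seen. Members, words and gene lists were chosen with earlier results of these data known. Alternatives in the threshold, the window, the promoter radius, the matching distance and the lists are given with the closing observations.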

Additional observations from a re-analysis of the deposited data

How the results depend on the processing

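With 11 results recomputed under 79 alternatives, 62 values moved by less than their interval or 1.5 times and 17 moved further. The differences and ratios kept their direction, and counts, plain shares and medians have none that could change. Without replicate 1 or without replicate 2, that is in the other replicate's own list of 5921 peaks, there were 521 to 765 A+T-poor summits. The promoter share was then 45.1 to 49.3% and its excess over other summits 12.3 to 14.7 points, and the GTAAAC share was 8.10 to 9.60% with an excess of 4.19 to 6.538 points over weaker A+T-poor summits. The stronger 50% of the IDR list held 236 members, 94.1% of them with a peak in both replicates. A promoter radius of 250 bp gave a promoter share of 40.6% and one of 1000 bp 58.02%. Matching within 50 bp instead of 100 bp put support in both replicates at 72.9%, among the strongest of replicate 1 at 80.7% and of replicate 2 at 62.5%. Matching within 200 bp gave 93.0%, 89.2% and 70.3%. Promoter summits alone gave a signal ratio of 0.737, a GTAAAC share of 8.30% and an excess of 4.83 points. The ratio of the A+T-poor share in the IDR list to that outside it was 0.408 with a 51 bp window and 0.329 against the weakest 10000 relaxed summits. The alternatives for GTAAAC and those limited to the strongest peaks of both replicates were chosen after seeing the data. The cause of these shifts was not tested. No paired analysis was possible because there is 1 group, so no groups share replicate numbers.

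The limits are the 2 libraries, the unknown depth, a control library not analysed here and whole embryos, in which a peak cannot be placed in a cell type.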
